A study of Drosophila melanogaster with 6 samples.

Results

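The heat response of tRNA-derived small RNAs was compared between flies with and without Dnmt2. The measure is a difference of differences: the log2 ratio of heat shock over control in Dnmt2 mutants minus the same ratio in heterozygotes, so that a negative value means a lower heat response in mutants. It rests on 4 of the 6 libraries of the series, 1 for each genotype and condition. There was no replicate, no test was run, and no p-value is given. The values describe these libraries. A tRNA isoacceptor (an amino acid with its anticodon) or a single fragment sequence was taken as differing under 3 conditions. It needed at least 100 reads over the 4 libraries, a difference of at least 2-fold, and a 95% counting interval that excluded 0. The last 2 had to hold, with the same sign, under at least 2 of 3 ways of scaling the libraries (TMM, RLE and total counts). By this rule 5 of the 50 isoacceptor features and 18 of the 3423 distinct sequences of the series were selected. The members were thus chosen by the difference itself, which is given as a description.

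All flies were adult Drosophila melanogaster males on a w1118 background, and RNA came from whole bodies without testes. Heterozygotes (+/Dnmt2 mutant) carried 1 mutant copy and mutants (Dnmt2 mutant/Dnmt2 mutant) only mutant copies, so by these labels the comparison flies were not wild type, although the series title calls them so. Controls were 10 days old and untreated. Heat-shocked flies were 10 days old and had spent 1 h at 37 °C and then 5 h at room temperature. Recovery flies, quoted beside the members and used in no difference, were 12 days old and had 2 days after the heat shock. The labels do not give the mutant allele, the number of flies per library, or whether flies were pooled. Counting each sequence once gave 15616 reads on tRNA genes in heterozygote control, 46965 in heterozygote heat shock, 68923 in mutant control and 38249 in mutant heat shock. Recovery gave 29603 in heterozygotes and 5485 in mutants, the shallowest library. In bulk RNA from whole bodies, fewer cells of a type and fewer fragments per cell cannot be told apart. Marker transcripts of tissues and the Dnmt2 transcript were not analysed here.

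Dnmt2 is a conserved methyltransferase that places a methyl group on a cytosine of the tRNA anticodon loop, just after the anticodon. Its known substrates in flies are Asp-GTC, Gly-GCC and Val-AAC. Endonucleases cut tRNAs in the anticodon loop under stress, which yields 5′ and 3′ tRNA fragments, and in flies Dnmt2 methylation is known to protect substrate tRNAs against such cleavage. The position where a 5′ fragment ends is therefore a readout of where the tRNA was cut or where the fragment was trimmed.

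A choice of the fragments that carried the differences is shown here, read 5′ to 3′ from the deposited lists, with the anticodon bases they contain in capitals. The 35-nt Asp-GTC fragment, which did not meet the rule, is shown because it is the main product of that tRNA and shares all but its last bases with the others.
Asp-GTC, ends at 33: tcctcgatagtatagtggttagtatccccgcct
Asp-GTC, ends at 34: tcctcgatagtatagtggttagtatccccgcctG
Asp-GTC, ends at 35: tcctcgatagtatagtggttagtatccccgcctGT
Asp-GTC, ends at 36: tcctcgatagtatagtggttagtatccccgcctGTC
Asp-GTC, 3′ fragment from 39: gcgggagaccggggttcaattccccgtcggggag
Cys-GCA, ends at 34: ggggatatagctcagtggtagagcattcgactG
Gln-CTG, ends at 36: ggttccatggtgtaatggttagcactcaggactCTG
Positions follow tRNA numbering with the anticodon at 34 to 36. The 5′ Asp-GTC fragments are the same sequence stopped at 4 neighbouring bases. The lists name 10 Asp-GTC genes on arm 2L, 1 on 3L and 3 on 3R, and 7 Cys-GCA genes on 3L. The Gln-CTG fragment shown is listed at genes on 2L and X.

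Among 28 isoacceptor features with at least 100 reads, 5 met the rule, which is 17.9% of those tested, and all 5 had a lower heat response in mutants. They were the tRNAs for selenocysteine (SeC-TCA), tryptophan (Trp-CCA), lysine (Lys-CTT), arginine (Arg-ACG) and asparagine (Asn-GTT). None is a known Dnmt2 substrate. By the same rule 0 of the 28 (0%) had a higher response in mutants. Over the 28 features the median difference was -0.24 with TMM scaling, with quartiles of -0.63 and 0.14. It was -0.45 with RLE and 0.07 with total counts, since a change of scaling moves all differences alike, by -0.21 for RLE and by 0.31 for total counts relative to TMM. With TMM, 20 features lay below 0 and 8 above, and with total counts 12 lay below and 16 above. The excess of lower responses thus depends on the scaling, whereas 4 of the 5 members met the rule under all 3 scalings, Asn-GTT being the exception. With total counts without Gly-GCC, the most abundant isoacceptor, 2 of the 5 passed, SeC-TCA and Trp-CCA, and the calls over all features were 2 higher and 2 lower.

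**Figure D1:**
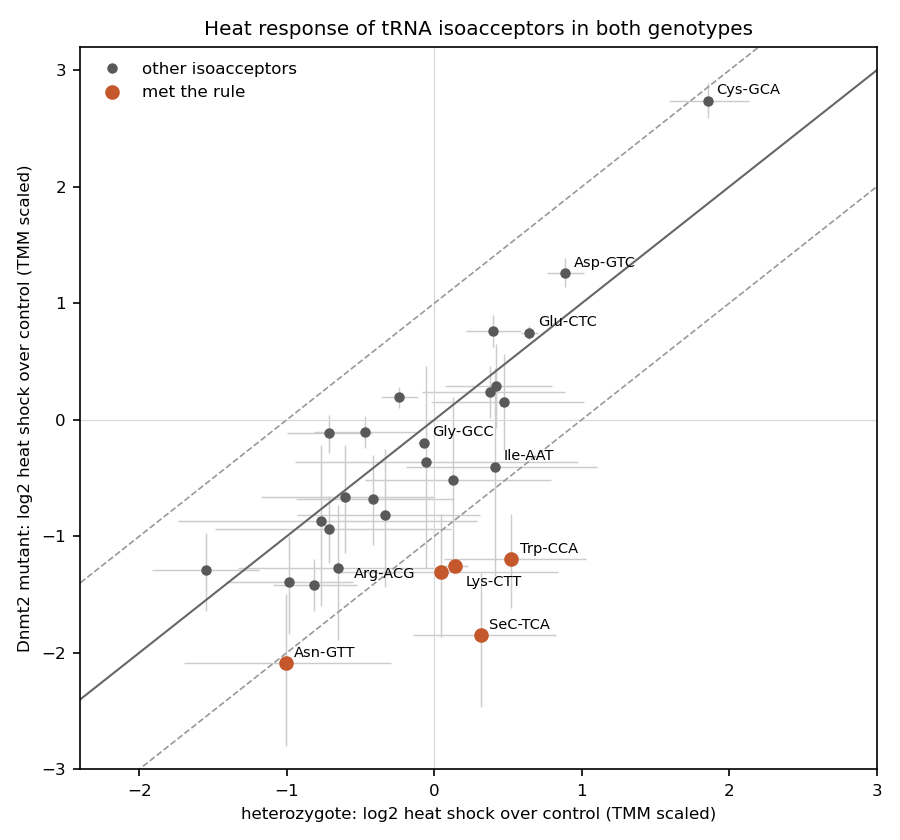
Heat shock over control (log2, TMM scaled) in heterozygotes (x axis) and Dnmt2 mutants (y axis) for the 28 isoacceptor features with at least 100 reads; bars are 95% counting intervals, the solid line marks equal responses and the dashed lines a 2-fold difference. The 5 members, in orange, lie below the lower dashed line, and Cys-GCA lies just inside the upper one.

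Lys-CTT, which decodes a lysine codon, was the member with the most reads. It took 9.36% of reads in heterozygote control (95% Wilson interval 8.92 to 9.83), 9.25% in heterozygote heat shock, 19.8% in mutant control and 9.21% in mutant heat shock. The mutant control library stood apart: in recovery the shares were 13.4% in heterozygotes and 10.4% in mutants. The heat ratio was 0.14 (log2, 95% interval 0.06 to 0.23) in heterozygotes and -1.25 (-1.31 to -1.20) in mutants. The difference was -1.40 (-1.50 to -1.29) with TMM, -1.60 with RLE and -1.08 with total counts, and with total counts without Gly-GCC it was -0.91, short of 2-fold. With total counts the heterozygote ratio was -0.02, so that an opposite direction in the genotypes is seen with TMM and RLE but not with total counts.

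A single sequence, the 35-nt 5′ fragment ending at anticodon position 35, made up 82.6% of the Lys-CTT reads of the 4 libraries. It took 6.92% of heterozygote control reads (1080), 7.15% after heat shock (3359), and in mutants 16.8% in control (11592) against 7.61% after heat shock (2909). Its difference of heat responses was -1.51 (-1.62 to -1.39). The 41-nt Lys-CTT fragment from the same 5′ end took 0.532% and 0.488% of reads in the heterozygote pair against 0.714% and 0.207% in the mutant pair, with a difference of -1.97 (-2.50 to -1.46). For both fragments the share after heat shock was close to that of the control in heterozygotes and less than 0.5 times it in mutants. Among the 22 Lys-CTT sequences with at least 10 reads, 16 had a difference below 0, which the choice of Lys-CTT by its negative sum favours. Of all 85 fragments with at least 100 reads, 37 lay below 0 with TMM. Of the Lys-CTT genes, 11 lie on arm 2R and 2 on 3L.

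SeC-TCA is the tRNA that inserts selenocysteine at recoded UGA codons, and has 1 gene, on 2R. It had 48 reads in heterozygote control and 162 in heat shock, against 184 and 31 in mutants, which is 0.307%, 0.345%, 0.267% and 0.0810% of the libraries. The mutant heat shock share was the lowest of all 6 libraries, and recovery shares were 0.561% and 0.182%. The Wilson intervals of mutant heat shock and mutant recovery overlapped. The difference was -2.17 (-2.97 to -1.44), the largest among isoacceptors, and between -2.63 and -1.69 over all settings run. All 8 of its sequences with at least 10 reads had a difference below 0, which the choice of SeC-TCA by its negative sum favours. Such counts were 11 of 13 in Trp-CCA, 7 of 9 in Arg-ACG and 6 of 10 in Asn-GTT. The 37-nt 5′ fragment, the most frequent, had 8, 71, 57 and 18 reads in heterozygote control, heterozygote heat shock, mutant control and mutant heat shock. Its heat ratios had opposite signs, at 1.65 (0.67 to 2.99) in heterozygotes and -0.94 (-1.82 to -0.18) in mutants, under all 3 scalings.

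Trp-CCA, the tRNA for tryptophan, had 47 reads in heterozygote control, 183 in heterozygote heat shock, 250 in mutant control and 67 in mutant heat shock. These are 0.301%, 0.390%, 0.363% and 0.175% of reads. Its heat ratio was 0.52 (0.06 to 1.03) in heterozygotes and -1.19 (-1.61 to -0.81) in mutants, and the difference -1.72 (-2.37 to -1.10). These values include a 32-nt sequence with 1 read in heterozygote control and 53 in heterozygote heat shock. It kept 0 reads once shortened forms of longer reads were taken off. With shortened forms taken off, 41, 120, 164 and 44 reads remained in the same order. The heterozygote ratio was then 0.11 (-0.41 to 0.67) and the mutant ratio -1.14 (-1.67 to -0.67), so the genotypes no longer had opposite directions. The difference was -1.25 (-2.02 to -0.53) with TMM, and with total counts it was -0.99, just short of 2-fold. Its reads could not be placed on a rebuilt gene sequence, so their position in the tRNA is not given, but 57.4% of them shared their last 12 bases. In recovery the heterozygote share was the highest of the 6 libraries, at 0.611%, and the mutant share the lowest, at 0.146% (8 reads).

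Arg-ACG had 22, 62, 158 and 39 reads in heterozygote control, heterozygote heat shock, mutant control and mutant heat shock, and a difference of -1.35 (-2.32 to -0.47). With total counts without Gly-GCC it was -0.87, with an interval that just included 0. Its reads could not be placed either, and 76.2% shared their last 12 bases. Asn-GTT, whose reads were mostly internal (63.4%) or 3′ fragments (32.5%), had 32, 43, 169 and 24 reads in the same order. Its heat ratio was negative in both genotypes (-1.01, -1.69 to -0.29, in heterozygotes; -2.09, -2.80 to -1.50, in mutants), so it differed in size and not in direction. The difference of -1.09 (-2.09 to -0.15) was the smallest of the 5, and with total counts it was -0.77 with an interval that included 0. All 5 members had their lowest share among the 4 libraries in mutant heat shock, which the choice of members by a lower mutant heat response favours. For Lys-CTT, Arg-ACG and Asn-GTT its Wilson interval overlapped that of heterozygote heat shock, and for Lys-CTT the shares were 9.21% and 9.25%. For SeC-TCA and Trp-CCA the highest of the 4 as listed was heterozygote heat shock, and for the other 3 mutant control. Except in Lys-CTT, the Wilson intervals of the highest share and the next overlapped. With shortened forms taken off, the heterozygote heat ratio of Trp-CCA was -0.05 with total counts. Its heterozygote heat shock share was then no longer the highest.

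**Figure D2:**
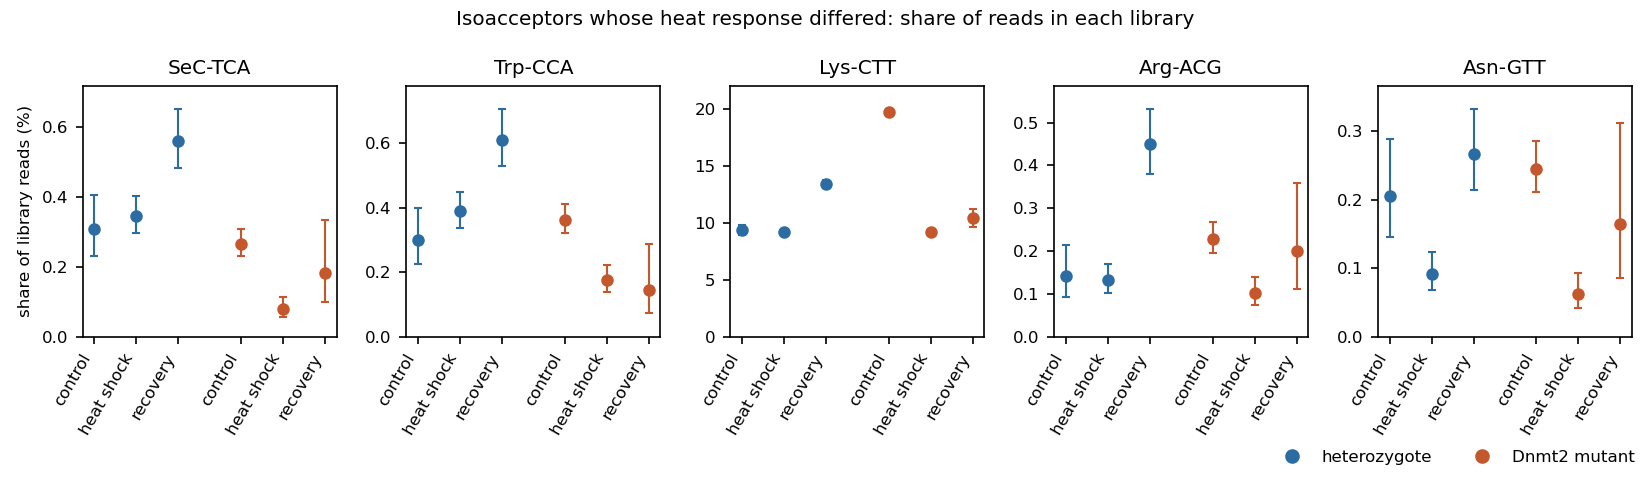
Share of library reads (%, points with 95% Wilson intervals) of the 5 isoacceptors in the 6 libraries, heterozygotes in blue and Dnmt2 mutants in orange; the panels have separate axes from 0. Lys-CTT is set apart by mutant control at 19.8%, whereas SeC-TCA has its lowest share in mutant heat shock at 0.0810%, with an interval that overlaps that of mutant recovery.

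Just outside the rule lay Cys-GCA, at 0.89 (0.57 to 1.19), and Ile-AAT, at -0.82 (-1.98 to 0.26). Cys-GCA had the largest heat ratio of both genotypes, 1.85 in heterozygotes and 2.74 in mutants, and its difference was past 2-fold with total counts alone. Among the known substrates, Asp-GTC took 3.87% of reads in heterozygote control against 6.41% after heat shock, and 1.24% against 3.30% in the mutant pair. Its difference was 0.37 (0.19 to 0.55) with TMM, 0.17 (-0.01 to 0.35) with RLE and 0.69 (0.51 to 0.87) with total counts, short of 2-fold under each. Gly-GCC had a difference of -0.12 (-0.17 to -0.08) with TMM and 0.19 with total counts, so its sign followed the scaling. Val-AAC had 3, 9, 1 and 2 reads in the 4 libraries, too few for a ratio. Of the 3 substrates, 2 had enough reads and 0 met the rule, against 17.9% of all features, so nothing is read from this count.

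Counted by exact sequence, 85 fragments had at least 100 reads, and 18 of them (21.2%) met the rule, 7 lower (8.24%) and 11 higher (12.9%) in mutants. Some sequences appear to be listed only because longer reads are shown in shortened form at genes that differ near the read's end. With such forms taken off, 16 of 77 fragments met the rule (20.8%), 4 lower (5.19%) and 12 higher (15.6%), and 15 fragments met it both ways, 4 lower and 11 higher. The sixteenth was the 33-nt fragment of the abundant Glu-CTC gene copy. The 3 that did not were a 47-nt Gly-GCC, a 32-nt Trp-CCA and a 38-nt Asp-GTC sequence. These kept 0 reads in each library by this counting, which assigns all their reads to longer sequences. Their differences as listed were -5.28, -4.78 and -1.97, and whether they also occur as reads of their own was not tested. The median difference of the 85 fragments was 0.16 with TMM, -0.04 with RLE and 0.48 with total counts.

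**Figure D3:**
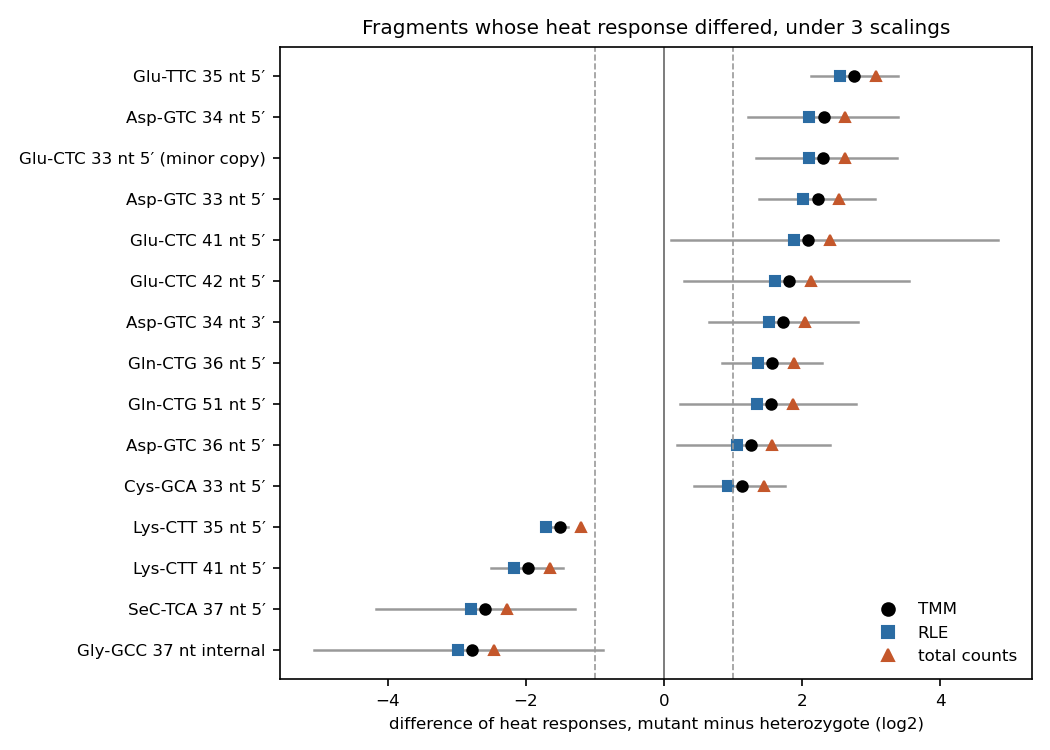
Difference of heat responses (log2, mutant minus heterozygote) of the 15 fragments that met the rule under both ways of counting, with TMM (circles, bars are 95% counting intervals), RLE (squares) and total counts (triangles); dashed lines mark 2-fold. The 11 positive fragments come from Asp-GTC, Glu-CTC, Glu-TTC, Gln-CTG and Cys-GCA, and the 4 negative ones from Lys-CTT, SeC-TCA and Gly-GCC.

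Asp-GTC as a whole did not meet the rule. Of its 11 tested fragments 5 did as listed, 4 higher and 1 lower, or 45.5% against 21.2% of all fragments. The 4 higher ones, which share most of their bases or their gene, held under both countings. The 5′ fragment ending at 33, the base before the anticodon, had 30 reads in heterozygote control, 146 in heterozygote heat shock, 32 in mutant control and 167 in mutant heat shock. Its share was 0.192% and 0.311% in heterozygotes and 0.0464% and 0.437% in mutants. The heat ratio was 0.84 (0.28 to 1.47) against 3.06 (2.53 to 3.67), a difference of 2.23 (1.38 to 3.07). The fragment ending at 34 had 20, 55, 23 and 72 reads in the same order and a difference of 2.31 (1.22 to 3.39). That ending at 36 had 36, 156, 15 and 36 reads and a difference of 1.26 (0.19 to 2.40), whose interval just included 0 with RLE. The main fragment, ending at 35, had heat ratios of 1.67 and 1.93 and a difference of 0.26 (-0.06 to 0.57). The main Asp-GTC fragment thus had a positive heat ratio in both genotypes. The interval of its difference included 0 with TMM and RLE but not with total counts (0.57, 0.25 to 0.89). Its neighbours ending at 33, 34 and 36 had larger differences.

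The 34-nt 3′ fragment of Asp-GTC from position 39 had 35 reads in heterozygote control, 58 after heat shock, 23 in mutant control and 29 after heat shock. Its heat ratio was -0.71 (-1.33 to -0.05) in heterozygotes and 1.03 (0.19 to 1.89) in mutants, so the directions were opposite. With RLE the heterozygote interval included 0. In mutant recovery the Asp-GTC fragments ending at 33 and 34 had 11 and 4 reads, or 0.201% and 0.0729%, against 0.101% and 0.0676% in heterozygote recovery.

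The glutamate tRNAs, which are not known substrates, gave 4 more fragments of 18 tested. That is 22.2%, close to the 21.2% of all fragments. The 35-nt 5′ fragment of Glu-TTC had the largest positive difference. Heterozygote control held 65 reads of it (0.416%) and heterozygote heat shock 149 (0.317%), mutant control 55 (0.0798%) and mutant heat shock 196 (0.512%). The heat ratio was -0.24 (-0.66 to 0.21) against 2.52 (2.09 to 2.99), and the difference 2.76 (2.13 to 3.40). For Glu-CTC, a 33-nt 5′ fragment of a less abundant gene copy had 50, 162, 15 and 56 reads and a difference of 2.30 (1.34 to 3.38). Its 41-nt and 42-nt 5′ fragments rested on 3 and 7 reads in mutant control, with differences of 2.09 (0.10 to 4.84) and 1.82 (0.29 to 3.55). The 41-nt fragment's interval included 0 with RLE. The 33-nt fragment of the abundant Glu-CTC copy lay just outside the rule, at 0.98 (0.78 to 1.17). It passed 2-fold with total counts alone (1.29).

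Gln-CTG, a glutamine tRNA, gave a 36-nt 5′ fragment that ended with the anticodon and had 47, 54, 118 and 92 reads in the 4 libraries. The heterozygote share was 0.301% in control and 0.115% in heat shock, and the mutant share 0.171% and 0.241%. The difference was 1.57 (0.84 to 2.29), and directions were opposite with RLE and total counts, while with TMM the mutant ratio of 0.34 (-0.07 to 0.74) included 0. Its 51-nt fragment, at the longest listed length, had 13, 22, 41 and 46 reads and a difference of 1.55 (0.24 to 2.79). The 33-nt Cys-GCA fragment that ends at 34 was the member closest to the 2-fold limit, at 1.13 (0.43 to 1.75). With RLE its difference was 0.92 (0.23 to 1.55), short of 2-fold. Its share went from 0.179% (28 reads) to 1.76% (827) in the heterozygote pair and from 0.132% (91) to 3.49% (1334) in the mutant pair, with heat ratios of 3.43 and 4.56, so the direction was the same. The remaining fragment, an internal 37-nt Gly-GCC sequence, had 5, 12, 111 and 8 reads and a difference of -2.77 (-5.06 to -0.89). The 38-nt Gly-GCC 3′ fragment, whose heat ratio was 3.38 in heterozygotes and 3.85 in mutants, did not meet the rule, at 0.47 (-0.01 to 0.93).

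The choice of positive fragments by a higher mutant heat response favours low levels in mutant control or heterozygote heat shock, so the following is a description. In 9 of the 11 the mutant control held the lowest share of all 6 libraries, and in the 2 Gln-CTG fragments it was heterozygote heat shock. In 5 of the 11, mutant heat shock held the highest. For the other 6 the higher heat response in mutants came with a heat shock share that did not exceed every other library. The mutant control also held the highest Lys-CTT share. It is a single library, so a feature of the library and a feature of untreated mutants cannot be told apart. Mutant libraries read C at an A of the gene more often than heterozygote libraries, at read positions counted from 1 at the 5′ end. At position 7 this occurred in 14.9% of mutant control and 14.7% of mutant heat shock reads, and at position 24 in 14.5% and 12.0%, against at most 0.222% in the heterozygote control and heat shock libraries. Sequences with such a base are not counted in their fragment. Counts were scaled up for this with the same rates carried over to shorter reads, where they were not measured. Then 15 of the 18 fragments and all 5 isoacceptors met the rule, among 23 fragments of which 9 were higher and 14 lower.

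Shares of ends within a tRNA do not depend on the scaling of a library. They are not independent of the choice of members: the Asp-GTC ends at 33 and the Glu-TTC and Lys-CTT ends at 35 are the reads of fragments that met the rule, so the shares describe the same reads in another way. Most Cys-GCA ends at 34 after heat shock were also reads of a member, the 33-nt fragment. It held 827 of 945 in heterozygotes and 1334 of 1620 in mutants. A smaller part of the Glu-CTC ends at 33 was the member of the less abundant gene copy. Among the tRNAs chosen for end shares, 3 whose main 5′ fragment ends at 35 had opposite directions of that share's heat response in the genotypes. End shares were not computed for other tRNAs with ends at 35, such as Pro-CGG. Among Asp-GTC 5′ fragments, 67.3% ended at 35 in heterozygote control and 80.0% in heat shock, whereas in mutants the share was 74.2% and 63.9%. The difference of the changes was -23.1 percentage points (95% interval from Wilson bounds, -31.2 to -15.0). The end shares of a tRNA are parts of a whole, so a negative difference at 35 is balanced at other positions and is not a separate result there. For Asp-GTC most of it was at 33, with 10.6% in heterozygote control against 7.13% after heat shock. In the mutant pair it was 10.1% against 19.3%, a difference of 12.6 points (7.02 to 18.4). Among Glu-CTC 5′ fragments the share ending at 35 was 47.3% and 58.6% in heterozygotes and 70.8% and 63.2% in mutants (difference -18.9 points, -21.8 to -16.1). Glu-CTC ends at 33, parts of the same whole, differed by 14.1 points (11.6 to 16.5). In Lys-CTT the same pattern was smaller, with 75.2% and 79.1% against 86.4% and 84.0% at 35 (difference -6.39 points, -9.33 to -3.57).

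Glu-TTC had the opposite sign. Its ends at 35 were 25.9% and 15.6% of 5′ fragments in heterozygotes and 9.32% and 24.2% in mutants, a difference of 25.2 points (18.4 to 32.4). In recovery the shares at 35 were 45.6% in heterozygotes and 41.2% in mutants for Glu-CTC, and 22.4% and 8.97% (7 of 78 reads) for Glu-TTC. Cys-GCA ends at 34 were more frequent after heat shock in both genotypes, from 41.1% to 77.1% and from 62.9% to 90.2%, and the difference of -8.83 points had an interval that included 0 (-19.0 to 1.98). Starts of Gly-GCC 3′ fragments at 35 went from 20.2% to 69.3% and from 8.95% to 56.7%, with a difference of -1.31 points (-6.21 to 4.00). Starts at 36 went from 68.0% to 25.4% and from 68.4% to 35.3%, a difference of 9.47 points (3.46 to 15.2). For Cys-GCA and Gly-GCC the large shift after heat shock was thus present in both genotypes. With reads of up to 35 nt scaled up for C read at A, an alternative chosen after seeing the data, the differences at 35 were -23.4 points for Asp-GTC, -19.1 for Glu-CTC and 26.6 for Glu-TTC.

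**Figure D4:**
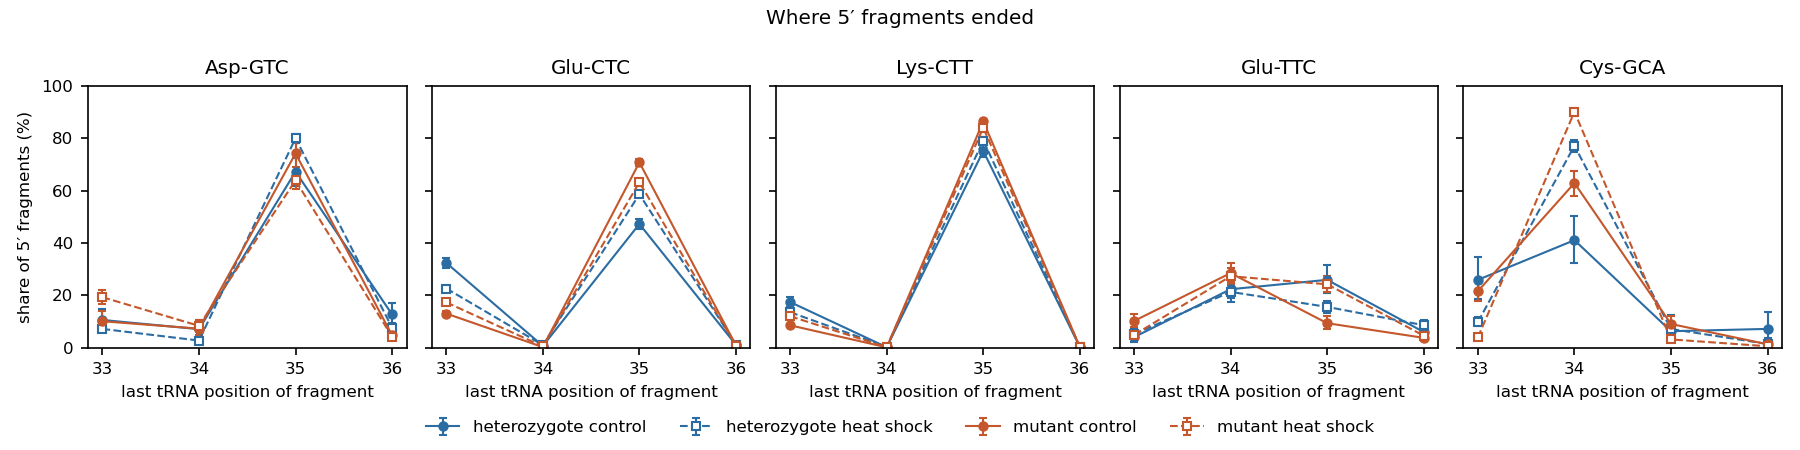
Share of the 5′ fragments of 5 tRNAs (%, with 95% Wilson intervals) that ended at tRNA positions 33 to 36, in control (filled, solid) and heat shock (open, dashed) of heterozygotes (blue) and Dnmt2 mutants (orange). At position 35 of Asp-GTC, Glu-CTC and Lys-CTT the heterozygote share is higher after heat shock and the mutant share lower. For Cys-GCA the signs at 35 are the same, with overlapping heterozygote intervals, and for Glu-TTC the reverse holds.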

How the data were processed

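Small RNAs of 25 to 70 nt from 200 µg of 2S-depleted total RNA were sequenced on an Illumina instrument, per the labels' protocols. The deposited values are read counts per sequence and tRNA gene, per the file headers, and were not normalized by the authors. The submitters' processing notes name Bowtie and build dm3; no version, mismatch limit or trimming step is given there. The lists hold reads of 30 to 51 nt, so their totals are not library depths.

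Members and lists were chosen with earlier results of these data known. Each sequence was counted once per library, at its lowest listed count, and summed per isoacceptor; sequences shared by isoacceptors formed 5 features. Alternatively, reads of longer sequences shown in shortened form were taken off, which returned 100.0% of 15000 simulated reads against 111.6%. The simulated lists were built with such shortened forms, so this cannot show whether the deposited lists hold them. Gene sequences were rebuilt from overlapping reads, and 95.6% to 98.4% of reads were placed. Of 297 listed genes, 288 matched RefSeq by name (another build, used for lengths).

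Scaling used edgeR 4.0.16 in R 4.3.3 (TMM or RLE over 6 libraries), with a prior count of 0.5. Ratios have exact conditional binomial intervals, and differences of ratios exact conditional intervals of the odds ratio. These held 95.71% of 1400 simulated differences for 28 features. A 2-fold difference passed the TMM part of the rule in 49.34% and a 4-fold one in 99.37% of cases, and no difference in 0.4274%. Intervals cover counting error only; reads carry no molecular identifiers. All isoacceptors that met the rule are named. Of the fragments, the 12 with the largest difference were to be named; the other 6, and the tRNAs for which end shares are given, were chosen after their values were seen.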

Additional observations from a re-analysis of the deposited data

Results flagged for a closer look

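Among those that met the rule, fragments under both countings, 2 isoacceptors and 4 fragments had heat ratios of opposite signs in the genotypes. Each ratio had a counting interval that excluded 0, under at least 2 of 3 scalings. With 1 library per group, the difference was not tested against a spread between replicates. Trp-CCA stood at 0.52 in heterozygotes and -1.19 in mutants (difference -1.72). With shortened forms taken off the heterozygote ratio of Trp-CCA was 0.11 (-0.41 to 0.67) and the difference -1.25 (-2.02 to -0.53), so the opposite direction was lost. Lys-CTT stood at 0.14 and -1.25 (-1.40). Among fragments, the 37-nt SeC-TCA 5′ fragment stood at 1.65 and -0.94 (-2.58) and the 35-nt Lys-CTT 5′ fragment at 0.21 and -1.30 (-1.51). The 36-nt Gln-CTG 5′ fragment stood at -1.23 and 0.34 (1.57) and the 34-nt Asp-GTC 3′ fragment at -0.71 and 1.03 (1.73). A 32-nt Trp-CCA sequence, part of the Trp-CCA reads, had opposite signs as listed, but 0 of its reads remained with shortened forms taken off. Lys-TTT, which did not meet the rule, also had opposite signs with TMM and total counts. It stood at -0.24 (-0.36 to -0.11) in heterozygotes and 0.19 (0.10 to 0.28) in mutants with TMM, a difference of 0.43. Its 33-nt 5′ fragment stood at -0.32 and 0.17 (0.49), likewise short of 2-fold.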

How the results depend on the processing

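No paired analysis was possible because each group has 1 library and the labels carry no replicate numbers. The count of 5 isoacceptors became 3 with a minimum of 300 reads and 8 with a 1.5-fold limit, and the count of 18 fragments became 35 with a minimum of 30 reads and 6 with one of 300. In the other settings the counts were within 1.5 times, at 4 to 7 isoacceptors and 15 to 24 fragments. The split of fragments into higher and lower was 11 and 7 by the rule, 8 and 11 with RLE, 15 and 7 with total counts, 17 and 7 with total counts without Gly-GCC, and 9 and 14 with counts scaled up for C read at A. For isoacceptors it was 0 and 5, and 2 and 2 with total counts without Gly-GCC, where 2 of the 5 members remained. A prior count of 2 or all 3 scalings left 4 isoacceptors. The Gly-GCC difference reversed to 0.19 with total counts and 0.36 with total counts without Gly-GCC, by the shift of the scaling. Asp-GTC ranged from 0.01 to 0.86. Differences were recomputed for the 5 members, Asp-GTC, Gly-GCC, Cys-GCA and the 12 fragments of largest difference. Apart from the Gly-GCC isoacceptor, 0 of these reversed. Other differences given in the text were not recomputed under every setting. All 15 recomputed end share differences moved within their intervals. The 3 sequences with no reads once shortened forms were taken off have no value there. The criterion of TMM alone (5 and 18) and the end shares scaled up for C read at A were added after the data were seen. Leaving out a library was not possible with 1 per group. Depth limits fragments with few reads, such as the 41-nt Glu-CTC fragment with 3 reads in mutant control. Gly-GCC took 45.2% to 57.3% of reads in the 4 libraries, so total counts follow it.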
